A study of Mus musculus with 18 samples.

Results

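Regions that carried lamin B1 in young livers, carried none in old livers and had no H3K9me3 at either age were examined as windows of 10 kb. A window was a member when it lay inside a lamin B1 region called in young livers and inside no region called for lamin B1 in old livers or for H3K9me3 in young or old livers. Of 246266 windows on chromosomes 1 to 19, 8069 were members (80.69 Mb), and adjacent members were joined into 882 runs. The windows were chosen by the presence and absence of calls in these 4 lists, so both are a description here and not a finding. Absence of H3K9me3 holds only for these lists, since the H3K9me3 lists used here hold far fewer regions than the study describes, a window without a call can still carry some signal and each lamin B1 region may bridge a gap of up to 3 windows that have no signal of their own.

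The study profiled livers of male C57BL/6 mice aged 3 months (young) and 21 months (old) by ChIP-Seq with antibodies to lamin B1 and H3K9me3, with 2 replicates for each antibody and age. Foxa2 was profiled in livers of C57BL/6 mice aged 12 weeks, in Zmpste24 KO mutants and in wild-type control littermates, with 3 replicates per genotype. Zmpste24 encodes the protease that processes prelamin A, and its null mutation is a progeroid laminopathy model carried by every cell of the animal and not by hepatocytes alone. The replicates were merged before regions were called, and the lists hold positions without scores, so no spread between mice can be given, no test between conditions was possible, and neither the Zmpste24 genotype nor the labelled tissue could be checked against a measured gene.

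The nuclear lamina is a meshwork of lamins under the inner nuclear membrane, and the stretches of chromatin that touch it are called lamina-associated domains. These domains are typically rich in A and T, poor in active genes and often marked by methylation of lysine 9 of histone H3, of which the trimethylated form H3K9me3 marks constitutive heterochromatin. Foxa2 is a winged-helix (forkhead) transcription factor of the liver that can bind its motif in compacted chromatin and is therefore called a pioneer factor.

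The midpoints of 53 Foxa2 sites called in both wild-type and mutant livers lay in member windows. The 200 bases at the centre of 6 such sites are shown, because they are DNA that lay in a young lamin B1 domain and was bound by Foxa2 in both genotypes. They were taken by the number of forkhead cores in the 200 bases, without sites that touch an exon. Ties were broken by chromosome name sorted as text, so that tied sites on chromosomes 2, 4, 9 and 14 are not shown. All are on the plus strand of GRCm38 (mm10), and capitals mark the forkhead core TGTTTAC or its reverse complement GTAAACA.
Bche intron, chr3:73673402-73673601: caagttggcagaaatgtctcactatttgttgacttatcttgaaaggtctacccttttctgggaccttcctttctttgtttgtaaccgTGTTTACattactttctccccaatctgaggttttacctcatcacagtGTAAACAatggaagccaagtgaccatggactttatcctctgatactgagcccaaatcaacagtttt
Arhgap18 intron, chr10:26856203-26856402: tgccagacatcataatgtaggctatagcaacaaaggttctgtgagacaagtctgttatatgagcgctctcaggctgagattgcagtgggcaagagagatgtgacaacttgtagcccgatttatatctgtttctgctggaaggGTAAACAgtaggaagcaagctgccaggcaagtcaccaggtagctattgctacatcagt
Between genes, nearest start Btg1, chr10:96691032-96691231: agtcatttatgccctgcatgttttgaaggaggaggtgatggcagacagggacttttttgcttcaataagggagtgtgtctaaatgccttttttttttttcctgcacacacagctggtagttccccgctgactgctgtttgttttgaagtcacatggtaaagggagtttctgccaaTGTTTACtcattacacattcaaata
Sh3yl1 intron, chr12:30937015-30937214: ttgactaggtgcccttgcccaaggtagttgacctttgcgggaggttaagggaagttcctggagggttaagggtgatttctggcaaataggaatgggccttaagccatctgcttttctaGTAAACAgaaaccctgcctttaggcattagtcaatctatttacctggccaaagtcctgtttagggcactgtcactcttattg
Mipol1 intron, chr12:57444543-57444742: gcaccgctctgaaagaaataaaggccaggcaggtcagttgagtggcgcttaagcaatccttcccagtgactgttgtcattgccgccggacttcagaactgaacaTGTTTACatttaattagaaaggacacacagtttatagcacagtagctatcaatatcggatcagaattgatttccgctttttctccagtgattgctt
Agtr1a intron, chr13:30347084-30347283: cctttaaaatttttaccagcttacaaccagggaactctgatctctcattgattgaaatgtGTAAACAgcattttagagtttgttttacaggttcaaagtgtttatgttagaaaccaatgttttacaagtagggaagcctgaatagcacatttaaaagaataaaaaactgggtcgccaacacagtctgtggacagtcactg

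The printed bases in Bche, which encodes butyrylcholinesterase, held 2 cores, 1 on each strand, and those of the other 5 sites held 1 core each. The site in Mipol1, with a further core outside the printed bases, lay 102 kb from the start of Foxa1, the nearest start site and that of another liver forkhead factor. Among all members cut into stretches of 200 bases, 3.40% held the core, against 2.98% over all windows of chromosomes 1 to 19, and these 6 stretches were chosen for holding it.

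In young livers, lamin B1 regions covered 46617 windows, and the members made up 17.3% of them (95% Wilson interval 17.0 to 17.7%). The interval, like all those that follow, covers counting error alone, and it is too narrow because neighbouring windows share a region. Old lamin B1 regions covered more, 93025 windows. Over all windows with at most 10% unknown bases, 19.5% lay in young and 38.8% in old lamin B1 regions. Of the same windows, 5.6% were called for lamin B1 in young and not in old livers. The members were 60.1% of the 13425 young windows that had no lamin B1 call in old livers. The other lost windows carried H3K9me3 in young livers only (3408 windows), in old livers only (582) or at both ages (1366). Among the young lamin B1 windows free of H3K9me3 at both ages, 29.2% had no call in old livers. The share was 65.7% where H3K9me3 was called in young livers only, 22.6% where it was called at both ages and 7.51% where it was called in old livers only. All of these shares use the lists that chose the members and are given as a description.

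**Figure D1:**
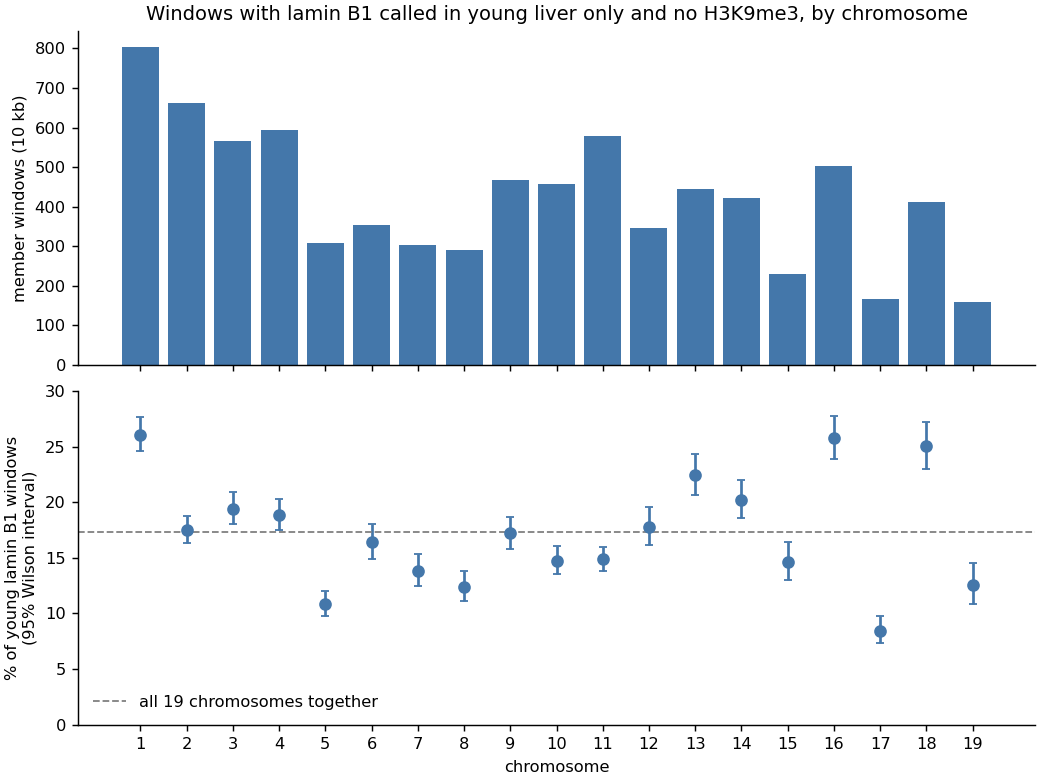
Member windows of 10 kb on each chromosome (bars, top) and their share of the young lamin B1 windows of that chromosome (points with 95% Wilson intervals, bottom, dashed line for chromosomes 1 to 19 together at 17.3%). Counts run from 160 on chromosome 19 to 803 on chromosome 1, and the share runs from 8.46% on chromosome 17 to 26.1% on chromosome 1.

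Members were present on all 19 chromosomes. The most were on chromosome 1, with 803 windows, and the fewest on chromosome 19, with 160. As a share of the young lamin B1 windows they ranged from 8.46% (7.31 to 9.76%) on chromosome 17 to 26.1% (24.6 to 27.7%) on chromosome 1, with 25.8% on chromosome 16 and 25.02% on chromosome 18. The mean over chromosomes was 17.3 ± 5.0% (SD, n = 19), and the intervals of the 3 highest chromosomes did not overlap those of the 3 lowest, chromosomes 5, 8 and 17. Chromosomes are not replicates of a condition, and no test was made between them.

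The runs had a median length of 70 kb (quartiles 40 and 120 kb). A single window made up 71 runs, and the 602 runs of at least 5 windows held 7298 members. These lengths depend in part on the calling. Every lamin B1 region was at least 30 kb long, and each may bridge a gap of up to 3 windows, so short losses inside an old region can be hidden. The longest run measured 1130 kb and the next 610 kb. Members lay in 748 of 1621 young lamin B1 domains (46.1%). In 353 of these domains no window had a lamin B1 call in old livers, and they held 4068 members (50.4%), while the other 4001 members lay in domains that were kept in part. The ends of the runs bordered windows in none of the 4 lists in 717 of 1764 cases (40.6%), windows with lamin B1 at both ages and no H3K9me3 in 629 (35.7%) and young lamin B1 windows with H3K9me3 in 349 (19.8%). A run was bordered by kept lamin B1 on both sides in 202 cases, on 1 side in 270 and on neither in 410 (46.5%). The shortest gap from a member to an old lamin B1 window had a median of 180 kb (quartiles 30 and 1110 kb) and a maximum of 8940 kb. H3K9me3 lay directly beside 403 members and within 3 windows of 1193 (14.8%).

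**Figure D2:**
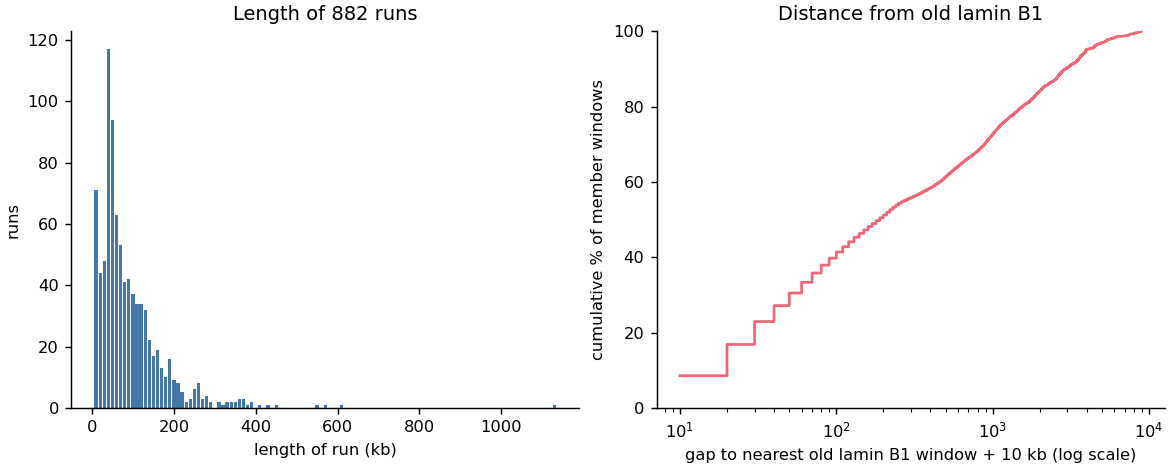
Number of runs by length in kb (left) and cumulative percentage of member windows by the gap to the nearest window with lamin B1 in old livers plus 10 kb, on a log axis (right). The median run is 70 kb long with 1 run of 1130 kb, and the median member lies 180 kb from old lamin B1.

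The 10 longest runs held 531 windows, or 6.58% of the members. The longest, chr10:95950001-97080000, lay next to kept lamin B1 on its left and to unlisted windows on its right. Protein-coding genes took up 8.99% of it, with the start sites of Btg1, an antiproliferative gene, and of Gm5426, and with part of Eea1, an early endosome tether. The second, chr13:104170001-104780000 (610 kb), held the starts of Trappc13, Trim23, Ppwd1, Cenpk and Adamts6. Its genes covered 71.8% of the run, and Adamts6, a secreted metalloproteinase gene of 209 kb, lay wholly inside it. In the third, chr2:20420001-20990000, Arhgap21 lay whole and Etl4 in part.

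The fourth run, chr14:122500001-123050000, contained all 357 kb of Pcca, which encodes a subunit of mitochondrial propionyl-CoA carboxylase, together with Ggact and Tmtc4. A run of 450 kb, chr1:71690001-72140000, touched no protein-coding gene and had kept lamin B1 on both sides. The run on chromosome 3 (chr3:30200001-30630000) held the starts of Mecom, a zinc finger transcription factor gene, Actrt3 and Mynn. That on chromosome 16 (chr16:85560001-85970000) contained the metalloproteinase genes Adamts1 and Adamts5 and was bordered by unlisted windows on both sides. The most start sites among the 10, 8, were in chr2:37320001-37710000, those of Olfr368, Pdcl, Rc3h2, Zbtb6, Zbtb26, Rabgap1, Strbp and Gpr21. The remaining runs were chr10:26840001-27230000, without a start site and with 84.3% of it in Arhgap18 and Lama2, and chr15:44550001-44930000, with Ebag9 and Sybu.

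**Figure D3:**
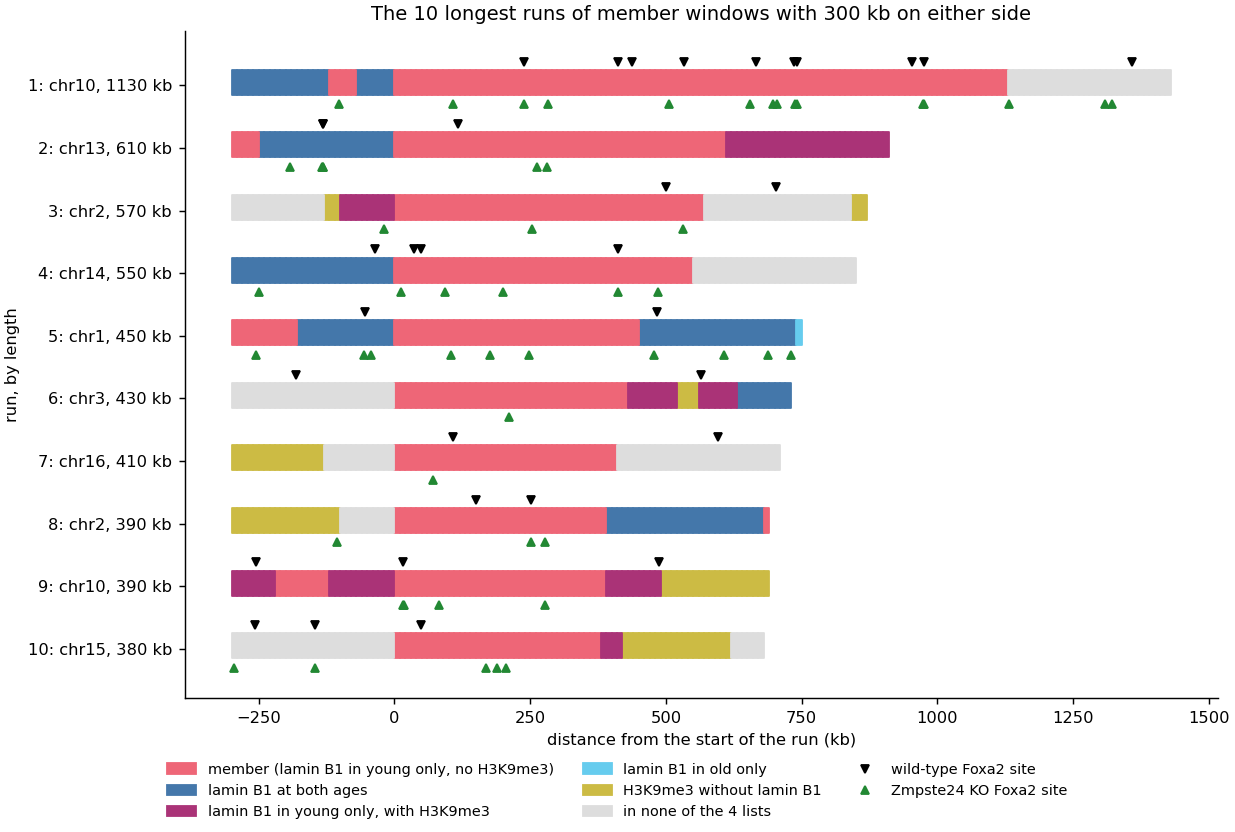
The 10 longest runs drawn to scale with 300 kb on either side, as distance in kb from the start of each run, coloured by the state of each 10 kb window, with the midpoints of wild-type (above) and Zmpste24 KO (below) Foxa2 sites. Runs of 380 to 1130 kb border kept lamin B1 (blue), young lamin B1 with H3K9me3 (purple) or unlisted windows (grey), and the longest run holds 9 wild-type and 11 mutant sites.

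Base composition was not part of the rule. The members had a mean GC content of 39.7 ± 2.53% (SD between 8068 windows with at most 10% unknown bases), against 41.9% over all windows. GC was below the median window (41.38%) in 75.3% of members (74.3 to 76.2%). The figure was 11.4% for windows that kept lamin B1 without H3K9me3, 9.38% for windows with lamin B1 in old livers only and no H3K9me3, 84.6% for windows that lost lamin B1 and H3K9me3 together and 76.5% for windows in none of the lists. The share in members was thus closer to that of unlisted than of kept windows, and their mean GC was below that of all windows on 19 of 19 chromosomes. Among the 602 runs of at least 5 windows, the run means of GC ranged from 35.0% to 44.9% with a median of 39.7%, and 522 runs (86.7%) were below the median window. Repeats masked in the reference took up 33.3% of member bases and 33.5% of all bases.

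Most members lay in genes. A protein-coding gene touched 66.7% of them (65.7 to 67.7%), compared with 47.0% of all windows, 37.7% of unlisted windows, 32.1% of windows that lost lamin B1 and H3K9me3 together and 79.3% of windows that kept lamin B1 without H3K9me3. Windows with lamin B1 in old livers only and no H3K9me3 had 66.95% (66.4 to 67.5%), which overlapped the interval of the members. The share in members was above that of unlisted windows on 19 of 19 chromosomes and above that of the windows that lost both on 18. Introns made up 56.4% of member bases (45.5 Mb), exons 5.59% and the space outside protein-coding genes 37.96%, while over all windows introns were 37.5%. Start sites were less frequent. At least 1 was present in 7.26% of members (6.72 to 7.85%), in 7.76% of all windows, 5.03% of unlisted windows, 4.02% of windows that lost both and 20.02% of kept windows. When unlisted windows were weighted to the GC content of the members, in bins of 2 percentage points, their gene share stayed at 37.7% and their start site share was 4.88%. Kept windows weighted in the same way, which covered 93.02% of the members, had 87.6% in genes against 67.0% for these members and 4.31% with a start site against 7.69%.

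**Figure D4:**
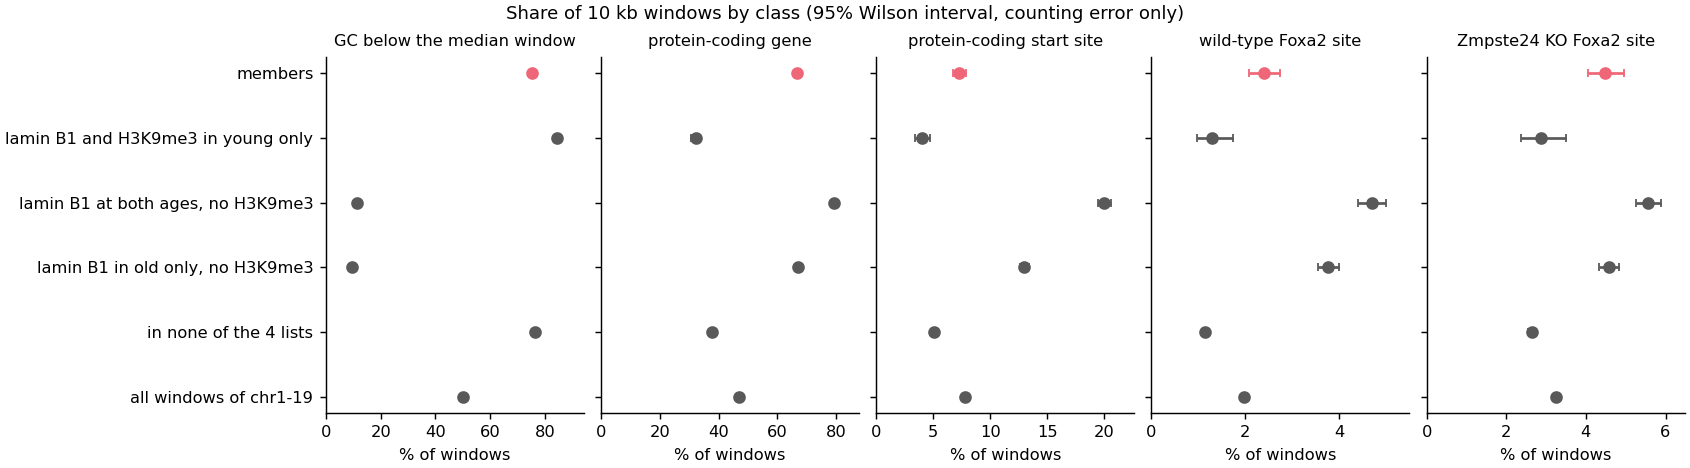
Percentage of 10 kb windows with GC below the median window, a protein-coding gene, a protein-coding start site, a wild-type Foxa2 site or a Zmpste24 KO Foxa2 site, for members and 5 other sets of windows, with 95% Wilson intervals for counting error. Members (red) have 75.3% of windows below the median GC, 66.7% in genes, 7.26% with a start site, 2.39% with a wild-type site and 4.47% with a mutant site.

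Genes in the members were long. Of 20807 protein-coding genes on these chromosomes, 1120 (5.38%) touched a member window, 676 (3.25%) had their start site in one and 391 lay wholly in members. Genes that started in members had a median length of 37.3 kb, compared with 17.6 kb for all genes, 17.6 kb for those that started in kept windows without H3K9me3 and 13.3 kb for those in unlisted windows. Of the genes over 100 kb, 329 of 2372 (13.9%) touched a member, and of the shorter genes 791 of 18435 (4.29%) did. A long gene has more windows that can be members, so these counts do not compare genes of equal length.

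The gene with the most member bases was Lrba, a vesicle trafficking gene of 558 kb, with 460 kb in members (82.4%), 48.01 kb in kept lamin B1 and its start outside the members. Etl4 had 391 kb (43.4%) and Erc2, a scaffold of the presynaptic active zone, 370 kb (43.2%). Pcca was covered in full (357 kb). Members covered 348 kb of Mecom (58.3%), 333 kb of Dlg2 (16.9%), a postsynaptic scaffold gene of 1973 kb, and 280 kb of Dennd1a (57.3%). The apoptosis-associated gene Faf1 had 263 kb (91.7%), utrophin (Utrn) 258 kb (52.9%) and the class IIa histone deacetylase Hdac9 257 kb (29.6%). The rest of these genes differed in state. Utrn, Dennd1a and Faf1 continued in kept lamin B1, with 229, 208 and 23.96 kb, while Mecom and Hdac9 continued in unlisted windows, with 249 and 612 kb. Etl4 and Dlg2 also lay in unlisted windows for most of their remainder, with 380 and 1420 kb. In Erc2, 429 kb (50.1%) lay in windows with lamin B1 in old livers only, which is more than its part in members.

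The positions of 14 lists of genes were compared with the members, beside the shares of all genes given above (3.25% with a start site and 5.38% touched). Of 56 nuclear receptors and coregulators, 6 (10.7%) started in a member window. These were Nr3c2 (mineralocorticoid receptor), Nr6a1, Pparg (PPARγ, a receptor of lipid storage), Nr2c2, the coactivator gene Crebbp and the corepressor gene Ncor1. Crebbp lay in members whole (133 kb), and Nr6a1 for 91.9% and Ncor1 for 83.4% of its length. Nr2c2 did so for 46.6% and Nr3c2 for only 17.5%, with 42.0% of Nr3c2 in windows with lamin B1 in old livers only. A further 3 were only touched, namely the coactivator gene Ncoa1 for 87.0% of its length, Esr1 for 120 kb (30.5%) and Rarb for 119 kb (30.7%). Pparg lay in members for 109 kb of its 129 kb, with the remaining 20.4 kb in kept lamin B1, and these member windows held 0 wild-type and 3 mutant Foxa2 sites. With 6 genes, and with long genes more often touched, the list was not tested against other genes.

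Among 40 genes of lipid synthesis and storage, Pparg was the only one to start in members, and Acaca, the acetyl-CoA carboxylase of fatty acid synthesis, lay in them for 210 kb (77.2%) without its annotated start. The lipid droplet gene Plin2 was touched for 1.61 kb. None of 41 hepatocyte genes, 63 forkhead, GATA and Sox factor genes, 32 voltage-gated channel genes and 23 cadherin genes touched a member. Of 22 nuclear lamina and inner membrane genes, Lemd3 alone was touched, for 35.8% of its length. Of 56 neuronal adhesion and synapse organiser genes 5 were touched (8.93%) and 1 started there, Dlg2.

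Of 1128 olfactory receptor genes, 9 started in members (0.798%) and of 327 vomeronasal receptor genes 0 did. Zinc finger protein genes had 10 of 385 (2.60%), among them Zfp51, Zfp53 and Zfp229 on chromosome 17, Zfp292 and Zfp654. For the cytochrome P450 genes the count was 2 of 100, Cyp2c55 and Cyp4x1, each in members for less than 20% of its length, and for the serpins 1 of 60, Serpinb8. The solute carriers had 13 of 372 (3.49%), close to the share of all genes, with the iron exporter gene Slc40a1 and the zinc transporter genes Slc30a7 and Slc39a10 among them.

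The Foxa2 lists come from other mice and another antibody and were not used to choose the members. A wild-type Foxa2 site had its midpoint in 193 member windows, or 2.39% (2.08 to 2.75%), against 1.96% of all windows. A mutant site did so in 361, or 4.47% (4.04 to 4.95%), against 3.25% of all windows. Windows in none of the lists had 1.15% (1.08 to 1.22%) with a wild-type and 2.64% (2.54 to 2.75%) with a mutant site, and windows that lost lamin B1 and H3K9me3 together had 1.29% and 2.88%. Kept windows without H3K9me3 had 4.70% and 5.56%. Windows with lamin B1 in old livers only and no H3K9me3 had 3.77% (3.55 to 4.01%) and 4.57% (4.33 to 4.82%). Of these 2 intervals, only the mutant one overlapped that of the members. The intervals of the members did not overlap those of the unlisted or the kept windows in either genotype. On single chromosomes, members were above unlisted windows on 17 of 19 for wild-type and on 18 of 19 for mutant sites, and below kept windows on 19 and 17.

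These shares moved with GC content. In windows of 38 to 40% GC, 1.98% of members (1.502 to 2.61%) had a wild-type site, against 0.836% (0.733 to 0.954%) of unlisted windows and 1.78% (1.04 to 3.02%) of kept windows. The mutant shares in the same bin were 4.49% (3.74 to 5.38%), 2.45% (2.27 to 2.65%) and 3.01% (2.00 to 4.52%). Between 36 and 38% GC the wild-type shares of members and unlisted windows, 0.724% and 0.666%, had overlapping intervals. Their mutant shares in that bin, 3.49% (2.68 to 4.54%) and 2.46% (2.25 to 2.70%), overlapped as well. Between 34 and 36% GC the intervals overlapped in both genotypes, and between 44 and 46% those of mutant sites did. From 40 to 44% GC the intervals of members lay above those of unlisted windows in both genotypes. Weighted to the GC content of the members, unlisted windows had 1.18% with a wild-type and 2.66% with a mutant site. Kept windows weighted in this way had 2.53% with a wild-type site, the same as the members they covered (2.53%), and 4.23% with a mutant site, against 4.53%. For windows with lamin B1 in old livers only and no H3K9me3, the weighted shares were 2.27% and 3.34%. Weighting by gene and start site in addition to GC left unlisted windows at 1.35% and 2.92% and the members they covered at 2.39% and 4.48%. Members in genes held a wild-type site in 2.51% and a mutant site in 4.72% of windows, and members outside genes in 2.16% and 3.98%, with overlapping intervals.

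**Figure D5:**
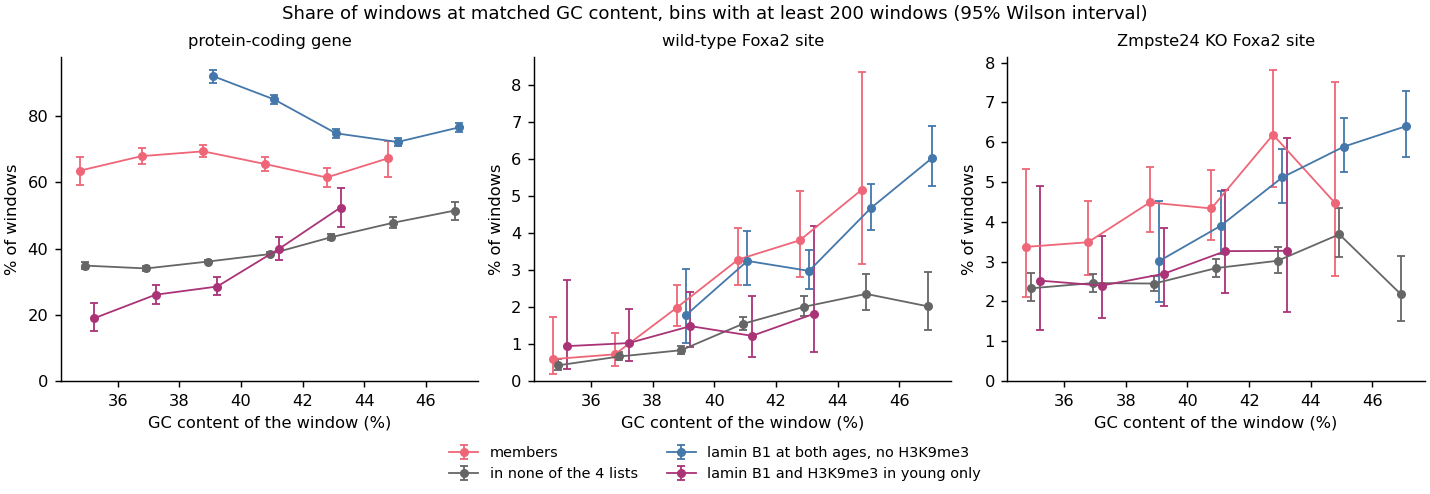
Percentage of windows with a protein-coding gene, a wild-type Foxa2 site or a Zmpste24 KO Foxa2 site in bins of 2 percentage points of GC content (x axis), for 4 sets of windows, with 95% Wilson intervals. Members (red) stay between 61.4% and 69.3% in genes from 34 to 46% GC, and from 38 to 40% GC their Foxa2 shares are 1.98% and 4.49%, with unlisted windows (grey) at 0.836% and 2.45%.

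Counted by site, the members held 197 wild-type and 376 mutant sites, a ratio of 1.91. The mutant list is the longer one, with 8051 sites against 4912 on these chromosomes (ratio 1.64). Mutant sites were 65.6% of the sites in members (61.6 to 69.4%), against 62.1% over all (61.3 to 62.9%), 53.9% in kept windows without H3K9me3 (51.8 to 56.0%) and 69.6% in unlisted windows (68.0 to 71.1%). The interval of the members overlapped those of all sites and of unlisted windows and lay above that of kept windows. Sites called in both genotypes numbered 53, which is 26.9% of the wild-type and 14.1% of the mutant sites in members. Over all sites on chromosomes 1 to 19 these shares were 27.3% and 16.8%, with intervals that overlapped those of the members. The low sharing was thus not particular to the members. In members, a wild-type site was not matched by a mutant call in 144 cases, and 323 mutant sites had no wild-type call. Because the lists hold no scores, a missing call cannot be told apart from a signal just under the threshold.

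The sites were divided by the genotypes in which they were called. The forkhead core was present in 26 of the 53 shared wild-type sites (49.1%, 36.1 to 62.1%), in 38 of 144 wild-type sites without a mutant call (26.4%, 19.9 to 34.1%) and in 79 of 323 mutant sites without a wild-type call (24.5%, 20.1 to 29.4%). The interval of shared sites, taken by their wild-type extents, lay above both others, which overlapped. By their mutant extents the core was in 24 of 53 shared sites (45.3%, 32.7 to 58.5%). That interval overlapped the one of sites called in wild type only and lay above the one of sites called in mutants only. Shared sites were also shorter, with a median of 602 bp against 1027 and 983 bp. Of stretches of 600 bases in members 10.003% held the core, and of stretches of 1000 bases 16.2%. In kept windows without H3K9me3 the core was present in 45.1%, 24.3% and 22.4% of the same kinds of site. A start site lay within 5 kb of 7 shared sites (13.2%), 40 sites called in wild type only (27.8%) and 44 called in mutants only (13.6%). In kept windows without H3K9me3 these shares were 37.0%, 36.4% and 25.7%, and in unlisted windows 19.4%, 13.75% and 6.63%. Mutant-only sites in members had a median distance to the nearest start of 33.2 kb and lay in introns in 57.0% of cases, close to the 56.4% of member bases that are intronic. In kept windows the median was 13.9 kb and the intron share 55.5%, with 57.3% of bases intronic. In unlisted windows they were 118 kb and 37.8%, with 31.3% of bases intronic.

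Most runs held no Foxa2 site, with none of either genotype in 568 of the 882. Sites were rare over all windows as well, with 1.96% holding a wild-type and 3.25% a mutant site. Stretches of equal length outside the members were not counted. Of the 314 runs with a site, 95 had sites of both genotypes, 167 of mutants only and 52 of wild type only. This split was not compared with other stretches, and the mutant list is the longer one. The longest run had 9 wild-type and 11 mutant sites, of which 4 were shared, and all 4 lay outside protein-coding genes and 51.7 to 307.5 kb from the nearest start. Chosen after their values were seen, the runs with the next most mutant sites were chr16:43870001-44220000, with 6 mutant and 1 wild-type site across Qtrt2, Ccdc191, Zdhhc23, Gramd1c, Atp6v1a, Naa50 and Usf3, and the Pcca run, with 5 and 3. Fxr1, which encodes a relative of the fragile X protein, had 4 mutant and 0 wild-type sites in its 50.3 kb of member windows, the highest mutant count of any gene.

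Over the 53 shared sites the median distance to the nearest start was 26.9 kb, and some lay close to the start of a gene. The nearest was 0.137 kb from the start of Hbp1, a transcriptional repressor gene, followed by Cox20 (0.609 kb) and Gtf2a2 (1.22 kb). Within genes, shared sites lay in introns in 27 cases and in exons in 6, and 20 were outside protein-coding genes. They included sites in Acaca, Akr1c14, Ppm1k, Ccny, Sdc2 and Adgrl3, and 2 in the angiotensin receptor gene Agtr1a, 10.7 and 19.3 kb from its start.

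Members with a Foxa2 site differed from members without one. Mean GC was 41.1 ± 2.37% in 193 members with a wild-type site, 40.04 ± 2.62% in 361 with a mutant site and 39.6 ± 2.52% in 7572 with none (SD between windows). The forkhead core occurred 0.211, 0.193 and 0.178 times per kb in these windows, with SDs between windows of 0.148, 0.139 and 0.138, so that the windows overlapped almost wholly. A start site was present in 23.3% of members with a wild-type site, 14.1% of those with a mutant site and 6.64% of those with none. In 30.1% of the members with a wild-type site a mutant site was called as well. No mutant site was called in 135 of these 193 members and, at about the same share, in 3266 of the 4701 windows with a wild-type site over all windows.

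Over all members, the forkhead core TGTTTAC, searched on both strands, was present in 81.9% of windows (81.0 to 82.7%) and 0.179 ± 0.139 times per kb (SD between windows). All windows of chromosomes 1 to 19 had 77.4% and 0.157 per kb, windows that lost lamin B1 and H3K9me3 together 82.3% and 0.180, kept windows 73.7% and 0.140 and unlisted windows 79.4% and 0.167. At matched GC content, kept windows had 0.180 cores per kb against 0.177 in the members they covered, and unlisted windows 0.166 against 0.179. The Klf core GGGCTGG occurred 0.205 times per kb in members, 0.425 in kept and 0.155 in unlisted windows, and at matched GC 0.280 in kept windows against 0.213 in the members covered. The GATA core AGATAA was in 99.96% of members and 99.6% of all windows, and the Sox cores CCATTGT and CCTTTGT in 97.8% and 97.9%. A match is a description of sequence and not of binding.

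The members were not uniform. In young domains without any old lamin B1, 52.1% of members (50.6 to 53.6%) touched a gene, against 81.5% (80.3 to 82.7%) in domains that were kept in part. Within 3 windows of old lamin B1 the share was 86.9%, and more than 1000 kb away from it 51.0%. Mean GC content fell over the same groups, with 40.2 ± 2.25% near old lamin B1 and 38.8 ± 2.48% beyond 1000 kb (SD between windows). Wild-type Foxa2 sites were in 2.49% (1.87 to 3.30%) and 1.97% (1.46 to 2.64%) of these windows and mutant sites in 5.14% (4.22 to 6.24%) and 4.35% (3.57 to 5.28%), with overlapping intervals. Of the members within 3 windows of H3K9me3, 57.9% touched a gene and 4.70% held a mutant site.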

How the data were processed

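Livers were profiled by ChIP-Seq for lamin B1 and H3K9me3 (ages 3 and 21 months, 2 replicates each) and for Foxa2 (12 weeks, 3 replicates per genotype). The authors used BWA for alignment to mm10 and Picard to discard duplicates. After restriction to unique alignments and merging of replicates, Epic was run by them for lamin B1 domains (windows of 10 kb, gap size 3). For Foxa2 sites they used PeakSeq, with input as the control. The submitters' processing notes name BWA and SICER for all samples, without saying what each was used for, and the methods name no caller for the H3K9me3 regions. The mutant Foxa2 reads were downsampled by the authors to the wild-type number. The merged young lamin B1 library was deeper than the old one and the merged H3K9me3 library deeper in old than in young livers, per the study, and depth per replicate was not used here. The deposited files list genome positions and carry no count, signal or score.

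Positions were converted to a first base of 1. Windows of 10 kb on chromosomes 1 to 19 were marked from 4 lists, with 1624 and 1519 lamin B1 and 2784 and 2496 H3K9me3 regions in young and old livers. The H3K9me3 lists hold far fewer regions than the study describes, which limits what absence of H3K9me3 means here. Windows with over 10% unknown bases (6779, of which 1 is a member) were left out of shares, which left 239487. GENCODE vM21 gave the genes with their start sites, and RefSeq GRCm38.p6 gave the sequence. A Foxa2 site was assigned to the window of its midpoint and a pair overlapping by 1 bp or more counted as shared. Weighted shares used cells with at least 20 windows. The code was tested on simulated regions and sequence. Python 3.11.15, numpy 2.4.6, pandas 2.3.3, scipy 1.17.1 and matplotlib 3.10.9 were used.

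The members, gene lists and words were chosen with earlier results of these data known. Named are the 10 longest runs, the genes that start in them, the 10 genes with most member bases, up to 8 members of each list that start in members, and Foxa2 sites called in both genotypes. Of these sites, sequences were printed for at most 6, those with most cores first, without sites in exons or on chromosome 18. Genes that are only touched, and runs and genes with the most mutant sites, were named after their values were seen. The result of 1 further gene list is not reported here. No test was run, since merged lists hold no value per mouse. Data on H3K9me2 or on Foxa2 in aged livers were not used here.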

Additional observations from a re-analysis of the deposited data

How the results depend on the processing

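The share of young lamin B1 windows that are members, 17.3%, moved to 15.7% with runs of at least 5 windows only, 13.3% at least 3 windows (30 kb) away from old lamin B1, 14.8% at least 3 windows away from H3K9me3 (14.75%), 8.73% with young domains that no old domain overlaps, and 16.7% without chromosome 1. The share with a protein-coding start site, 7.26%, moved to 6.56% away from old lamin B1, 6.52% in domains without old overlap, 17.2% with start sites of all annotated genes and 66.7% with any part of a gene. The share below the median GC, 75.3%, moved to 76.4% away from old lamin B1 and 79.7% in domains without old overlap. The forkhead share, 81.9%, moved to 50.2% with the longer word TGTTTACA and 99.99% with the shorter TGTTTA, and stayed within its interval under all 5 other definitions of members. For wild-type and mutant Foxa2 sites, the shares stayed within their intervals under all 7 alternatives, with 2.09 to 2.64% and 4.18 to 4.80%, including members in genes only, an alternative added after the data were seen. Each alternative changes which windows or features are counted.

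No paired analysis was possible because the replicates were merged before calling, and leaving out a replicate was not run for the same reason. A stricter threshold was not set, as the lists hold no scores. Depth of the merged libraries and age cannot be told apart. The part of the shorter H3K9me3 lists in the count of members was not tested.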
